A study of Homo sapiens with 8 samples.

Results

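Transcripts of the Wnt/beta-catenin pathway were followed in A375 human melanoma cells with and without serum, namely the 4 TCF/LEF transcription factors *LEF1*, *TCF7*, *TCF7L1* and *TCF7L2*, and 6 genes that are common feedback targets of the pathway, *AXIN2*, *NKD1*, *DKK1*, *RNF43*, *ZNRF3* and *APCDD1*. They are 10 listed members among 58051 genes counted in each of 8 RNA sequencing libraries, and they were taken by name. A375 is a cell line established from a melanoma. The libraries came from 4 A375 lines named WT1 to WT4, each grown out of a single cell, so that each line is 1 clone and each clone gave 1 library per condition. The labels do not spell out WT, which in the study's text stands for wild type at *NECTIN1*, a cell adhesion gene knocked out in other A375 lines of the study. Cells of every line were kept for 12 h in DMEM with 10% FBS (fetal bovine serum) or in DMEM without it, giving 4 libraries per condition, and the labels name no other allele or agent in either group. Count tables deposited for WT4 are named differently from its label, so that its identity is known from the label only. The series asked how melanoma cells change transcription when serum is withdrawn, in a search for secreted factors that keep cell junctions from forming.

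Wnt proteins bind Frizzled receptors and LRP co-receptors, which stops a cytoplasmic destruction complex of AXIN, APC, casein kinase and GSK3 from degrading beta-catenin. Beta-catenin then enters the nucleus and binds TCF/LEF factors, which otherwise recruit TLE repressors. Several genes switched on in this way encode inhibitors of the pathway, so that *AXIN2*, *NKD1*, *RNF43*, *ZNRF3*, *DKK1* and *APCDD1* serve both as readouts of the pathway and as brakes on it. In melanocytes the pathway acts with *MITF*, the regulator of the pigment lineage.

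TCF/LEF proteins bind short DNA words with a common core. The words searched were CTTTGAT, a form found at many known sites, its close variant CTTTGAA, the alternative form CTTTGTT and its own variant CTTTGTA. These 4 words were searched on both strands in RefSeq promoter windows of GRCh38.p14 that run from 250 bases before to 50 bases after a transcription start, and 4829 of all 35116 windows (13.8%) held at least 1 of them. Windows were matched for 7 members, *LEF1*, *TCF7*, *TCF7L1*, *TCF7L2*, *DKK1*, *RNF43* and *APCDD1*. Those of *TCF7*, *TCF7L2* and *DKK1* held a word, in 1 of 2 windows for *TCF7*, 1 of 3 for *TCF7L2* and the only window for *DKK1*. The starts concerned lie inside the *TCF7* and *TCF7L2* genes, whereas that of *DKK1* is the start of the gene. The words, in capitals within 29 bases of the plus strand, which is the coding strand of all 3 genes, are shown because 3 genes described here carry them close to a start. The *TCF7* word is CTTTGTT read on the opposite strand. A match of letters is a description of the window and shows no binding.
TCF7, 50 bases before the start, chr5:134123557-134123585: ggccccactggAACAAAGgaggagagagg
TCF7L2, 133 bases before the start, chr10:113126489-113126517: aaaatatcaggCTTTGTTcttttgattga
DKK1, 95 bases before the start, chr10:52314175-52314203: ccctcccagcgCTTTGAAatcccatcccg
DKK1, 76 bases before the start, chr10:52314194-52314222: tcccatcccggCTTTGTTgtctccctccc

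Reads counted on genes ranged from 29759279 to 73341551 per library. The share of reads that aligned to several places, which the counting leaves out, was 22.7% and 16.8% in WT1 and WT2 with serum and 5.73% to 10.1% in the other 6 libraries. Among melanoma and melanocyte markers, *MITF*, *AXL*, *NGFR* and *S100B* were detected in all 8 libraries, *TYR* reached at most 4 counts and *SOX10* was listed at 0 in all 8. Of the merged exon bases of *SOX10*, 5.39% are shared with *POLR2F*. Whether its 0 counts reflect absent RNA or the counting was not tested. The summed CPM (CPM are counts scaled to library size by edgeR's TMM method) of the 12 melanoma markers ranged from 591.5 to 922.7 with serum and from 416 to 869 without. The sums were 54.6 to 64.6 and 43.6 to 56.3 for 6 keratinocyte markers, 6.41 to 10.3 and 7.96 to 10.4 for 6 fibroblast markers, 2.99 to 6.80 and 3.87 to 8.404 for 5 leukocyte markers, and 12.9 to 41.8 and 18.5 to 47.4 for 3 endothelial markers. Few genes carried each sum. *AXL*, at 308.8 to 656.4 CPM over the 8 libraries, made up most of the melanoma sum, and *KRT10* (31.8 to 47.6) and *KRT14* (11.6 to 21.0) nearly all of the keratinocyte sum. *LYZ* (2.50 to 7.55) made up most of the leukocyte sum, and *KDR* (12.5 to 45.5) most of the endothelial sum, with *CDH5* and *VWF* at no more than 1.325 and 0.995 CPM. The keratinocyte marker *KRT1* was at 0 in all 8 libraries. The leukocyte gene *PTPRC* had at most 2 counts in a library. In bulk RNA, fewer cells with a transcript and less of it per cell cannot be told apart.

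Per exon length the members spanned a wide range. As RPKM (counts scaled to merged exon length and library size), the mean over the 8 libraries was 60.4 for *DKK1*, 11.2 for *TCF7L2*, 9.99 for *LEF1*, 2.98 for *ZNRF3*, 0.83 for *TCF7*, 0.466 for *TCF7L1*, 0.143 for *NKD1*, 0.122 for *AXIN2*, 0.0371 for *RNF43* and 0.00185 for *APCDD1*. The median over tested genes was 2.86 RPKM, so the secreted inhibitor *DKK1* and the factors *TCF7L2* and *LEF1* were above it and the intracellular feedback genes *AXIN2* and *NKD1* far below it. Neighbours in this order often shared their ranges. *TCF7L2* was above *LEF1* in 5 of 8 libraries and *NKD1* above *AXIN2* in 5 of 8, and that second order turned around with the length of the longest transcript. *DKK1* exceeded *TCF7L2* in 7 of 8 libraries, the exception being WT4 without serum. The ranges of *LEF1* and *ZNRF3*, of *ZNRF3* and *TCF7*, and of *RNF43* and *APCDD1* did not overlap, the last with *APCDD1* counts of 0 taken as exact.

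**Figure D1:**
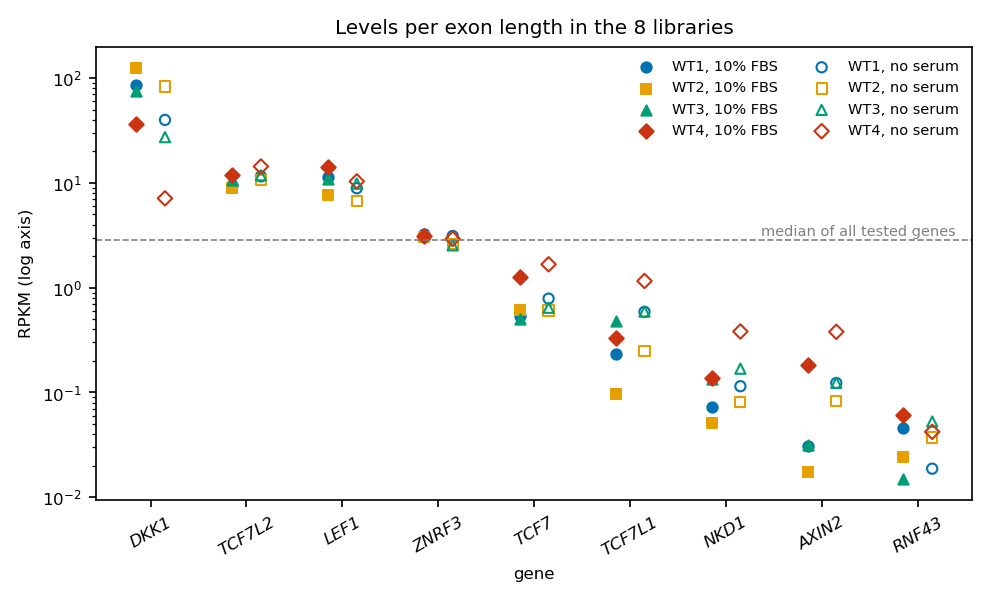
RPKM on a log axis of the 9 members with enough counts to be tested, in order of their mean, with filled symbols for the 4 libraries with 10% FBS, open symbols for the 4 without serum, and 1 colour and shape per line. *DKK1* lies highest at a mean of 60.4 RPKM and *RNF43* lowest at 0.0371, and the dashed line is the median of tested genes at 2.86.

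The effect of serum withdrawal was tested first without regard to line, by edgeR's quasi-likelihood method, over 17671 genes that passed a filter on low counts, with Benjamini-Hochberg adjusted p-values. The filter kept 9 of the 10 members and removed *APCDD1*. A gene is called here when its adjusted p is under 0.05. By that test 0 of the 9 members were called, against 25.1% of all tested genes, and 0 had an unadjusted p under 0.05, the smallest being 0.0604. DESeq2 and limma's voom called 0 of 9 as well. No member had serum-free libraries all above or all below the serum libraries, a pattern seen in 12.6% and 15.0% of tested genes. The same line gave a serum and a serum-free library, and when edgeR's fit took the line as a replicate block, 6 of 9 members were called, 5 upward and 1 downward. That fit called 45.7% of all tested genes, 23.2% upward and 22.4% downward. The 5 rises were *AXIN2*, *TCF7L1*, *NKD1*, *TCF7* and *TCF7L2*, and the fall was *LEF1*. In every line taken alone, *AXIN2*, *NKD1*, *TCF7L1* and *TCF7L2* were higher without serum and *LEF1*, *DKK1* and *ZNRF3* lower. A common direction upward in all 4 lines was found for 28.6% of tested genes and downward for 26.7%. The median log2 fold change was 0.24 over the 9 members in both fits, and 0.03 without and 0.04 with the block over all tested genes.

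**Figure D2:**
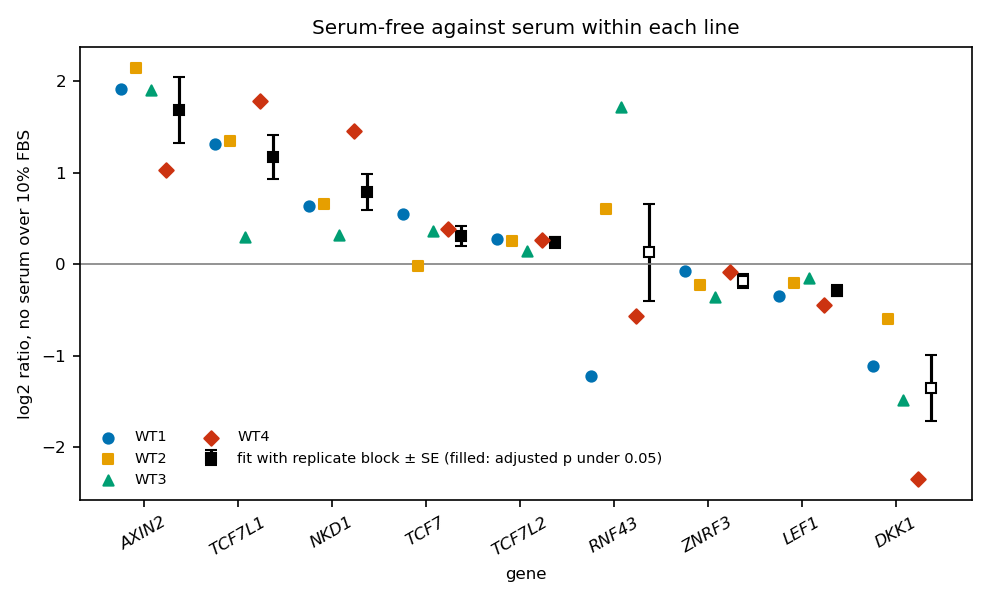
Log2 ratio of CPM without serum over CPM with 10% FBS for each line (coloured symbols, 0.5 added to each count) and the log2 fold change of edgeR's fit with the replicate block, with its standard error (squares, filled where the adjusted p was under 0.05), for 9 members. *AXIN2*, *TCF7L1*, *NKD1* and *TCF7L2* lie above 0 in all 4 lines and *LEF1*, *ZNRF3* and *DKK1* below 0 in all 4, while *RNF43* falls on both sides.

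*LEF1* (ENSG00000138795, chromosome 4 of GRCh38, 108047548 to 108168932) encodes lymphoid enhancer-binding factor 1, which acts mostly as an activator with beta-catenin. It was at 60.8, 41.3, 58.8 and 75.4 CPM with serum in WT1 to WT4, and at 47.8, 35.97, 52.9 and 55.5 CPM once serum was withdrawn. Every line was lower without serum, by 0.15 (WT3) to 0.44 (WT4) on the log2 scale, but the groups overlapped because WT2 was low in both conditions. Means were 59.1 ± 14 and 48.0 ± 8.66 CPM (SD, n = 4), and the log2 fold change was -0.30 (SE 0.19, edgeR's adjusted p = 0.288) without the block and -0.29 (SE 0.06, edgeR's adjusted p = 0.00217) with it. Of its merged exon bases, 5.2% are shared with the antisense gene *LEF1-AS1*.

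*TCF7L2* (ENSG00000148737, chromosome 10, 112950247 to 113167678), the factor also known as TCF-4 and well studied in the intestine, went the other way. It was at 64.2, 59.7, 72.1 and 80.4 CPM with serum in WT1 to WT4 and at 77.7, 71.8, 79.8 and 96.8 CPM without. The 4 lines rose by nearly the same ratio, 0.15 to 0.28 on the log2 scale, and the spread between lines in each condition was as large as that step. Means were 69.1 ± 9.10 and 81.5 ± 10.7 CPM (SD, n = 4). The log2 fold change was 0.24 in both fits, with edgeR's adjusted p = 0.158 (SE 0.12) without the block and 0.00292 (SE 0.06) with it. Per exon length (RPKM), *LEF1* was above *TCF7L2* in 3 of the 4 serum libraries and *TCF7L2* above *LEF1* in all 4 serum-free libraries. With the length of the longest transcript, *LEF1* was above in 2 of the 4 serum libraries and in 0 of the serum-free ones.

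*TCF7L1* (ENSG00000152284, chromosome 2, 85133392 to 85310387), best known as a repressor of Wnt targets, had the largest relative step among the factors. Its CPM was 1.03, 0.426, 2.13 and 1.48 with serum in WT1 to WT4, from 28 to 91 counts. Without serum it was 2.61, 1.099, 2.62 and 5.135 CPM, from 84 to 289 counts. WT4 rose 3.44-fold, WT2 2.55-fold and WT1 2.50-fold, whereas WT3, highest with serum, rose only 1.23-fold. Without the block the log2 fold change was 1.19 (SE 0.55, edgeR's adjusted p = 0.149), and with it 1.17 (SE 0.24, edgeR's adjusted p = 9.75e-04).

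*TCF7* (ENSG00000081059, chromosome 5, 134108218 to 134148210) encodes TCF1, a factor with full-length and truncated forms that these counts do not separate. It was at 5.43, 6.19, 5.05 and 12.9 CPM with serum and at 7.94, 6.11, 6.499 and 16.9 CPM without serum in WT1 to WT4. WT4 stood above the other 3 lines in both conditions, and its serum library was above every serum-free library of the others. The log2 fold change was 0.35 (SE 0.42, edgeR's adjusted p = 0.584) without the block. With the block it was 0.31 (SE 0.11, edgeR's adjusted p = 0.0353), and this call is the weakest of the 6. WT2 did not share the direction, with a log2 ratio of -0.02. With GC content corrected as well, the blocked value was 0.19 (edgeR's adjusted p = 0.174), and the call was also lost on leaving out WT1 (0.170), WT3 (0.135) or WT4 (0.0805), all edgeR's adjusted p.

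**Figure D3:**
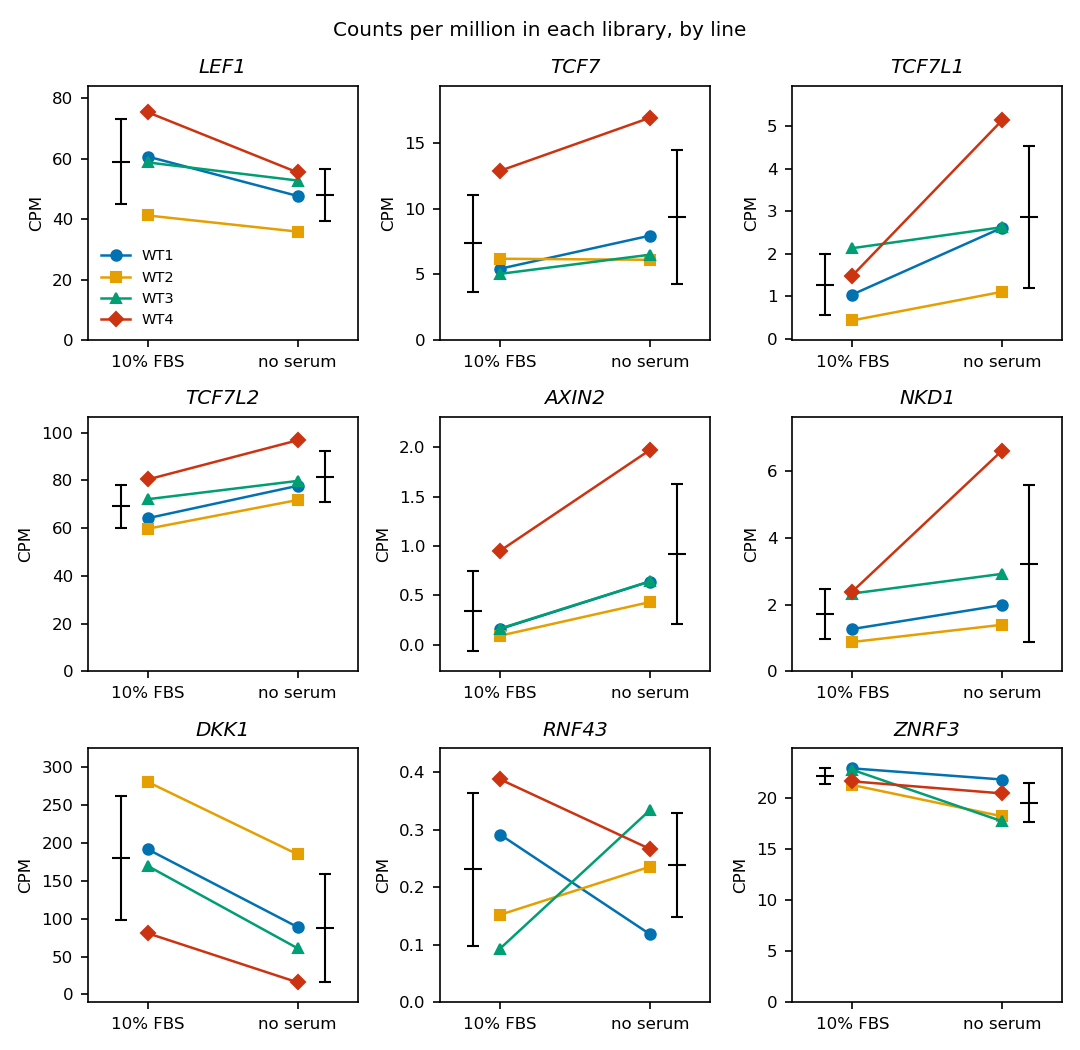
CPM in each of the 8 libraries for 9 members, with 1 colour and shape per line, a line joining the serum and the serum-free library of the same A375 line, and black bars for the mean ± SD of 4 libraries. WT4 is highest in both conditions for *LEF1*, *TCF7*, *TCF7L2*, *AXIN2* and *NKD1* and lowest for *DKK1*, and the groups overlap for all 9 genes.

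Among the feedback targets, *AXIN2* (ENSG00000168646, chromosome 17, 65528563 to 65561648), the inducible scaffold of the destruction complex and a target of the pathway in many tissues, had the largest log2 fold change of the 9 tested members. It had 6, 6, 7 and 27 counts with serum in WT1 to WT4 and 27, 33, 25 and 111 counts without. In CPM this was 0.159, 0.0913, 0.164 and 0.951 with serum and 0.640, 0.432, 0.642 and 1.97 without, with means of 0.341 ± 0.408 and 0.922 ± 0.707 (SD, n = 4). Each line was higher without serum, 3.79-fold in WT1, 4.43-fold in WT2, 3.74-fold in WT3 and 2.05-fold in WT4. WT4 alone made the groups overlap, since its serum library exceeded the serum-free libraries of the other 3 lines. The log2 fold change was 1.55 (SE 0.79, edgeR's adjusted p = 0.179) without the block and 1.69 (SE 0.36, edgeR's adjusted p = 0.00134) with it. Leaving out both WT4 libraries gave 2.06 without the block (edgeR's adjusted p = 0.00829), and leaving out its serum library alone gave 2.76 (0.0111). The value fell to 0.84 (edgeR's adjusted p = 0.477) without the serum-free library of WT4. Without the serum libraries of WT1 and WT2, which had the largest share of multiply aligned reads, it was 0.78 (edgeR's adjusted p = 0.625). That left WT3 and WT4 as the only serum libraries. Of the merged exon bases of *AXIN2*, 25.3% are shared with another gene, ENSG00000266076. The strand setting of the counting is not given in the sources used here, so reads from the shared part may have been left out as ambiguous. Ambiguous reads made up 8.23% to 11.5% per library, and their part in the few counts of *AXIN2* was not tested.

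*NKD1* (ENSG00000140807, chromosome 16, 50548396 to 50649249), which binds Dishevelled and dampens the signal, followed the same direction. It was at 1.27, 0.883, 2.34 and 2.395 CPM with serum in WT1 to WT4 and at 1.99, 1.4, 2.93 and 6.63 CPM without. WT4 rose 2.75-fold and the other lines 1.25-fold to 1.58-fold, and the log2 fold change was 0.92 (SE 0.52, edgeR's adjusted p = 0.229) without the block and 0.79 (SE 0.20, edgeR's adjusted p = 0.00518) with it. Without WT4 the blocked value was 0.54 (edgeR's adjusted p = 0.0446), and without the serum-free library of WT4 alone the unblocked value was 0.30 (edgeR's adjusted p = 0.651).

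*DKK1* (ENSG00000107984, chromosome 10, 52314281 to 52317657) encodes a secreted protein that binds LRP5 and LRP6 and blocks the receptor. It was the most abundant member, at 191.5, 280.5, 169.5 and 80.6 CPM with serum in WT1 to WT4. Without serum it was at 88.8, 184.9, 60.8 and 15.8 CPM. The means were 180.5 ± 82.1 and 87.6 ± 71.5 CPM (SD, n = 4). All 4 lines were lower without serum, 2.16-fold in WT1, 1.52-fold in WT2, 2.79-fold in WT3 and 5.09-fold in WT4. The step ranged widely between lines, and neither fit called it. The log2 fold change was -1.04 (SE 0.69, edgeR's adjusted p = 0.309) without the block and -1.35 (SE 0.36, edgeR's adjusted p = 0.0597) with it, and without WT2 the blocked value was -1.62 (edgeR's adjusted p = 0.0289). *PRKG1-AS1*, an antisense gene, shares 10.2% of its merged exon bases.

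*ZNRF3* and *RNF43* encode related membrane ubiquitin ligases that remove Frizzled receptors from the cell surface, and their levels differed widely. *ZNRF3* (ENSG00000183579, chromosome 22, 28883572 to 29057488) was at 22.9, 21.3, 22.8 and 21.6 CPM with serum and 21.8, 18.2, 17.7 and 20.45 CPM without. All 4 lines were lower without serum, by 0.07 to 0.36 on the log2 scale, and the log2 fold change was -0.18 without the block (edgeR's adjusted p = 0.169) and -0.18 with it (SE 0.08, edgeR's adjusted p = 0.0660), or -0.29 with the GC correction as well (edgeR's adjusted p = 0.00359). *RNF43* (ENSG00000108375, chromosome 17, 58352500 to 58417534) had 11, 10, 4 and 11 counts with serum and 5, 18, 13 and 15 without, 0.0935 to 0.387 and 0.1185 to 0.334 CPM, and 5.45% of its merged exon bases are shared with the antisense gene *TSPOAP1-AS1*. It was lower without serum in WT1 and WT4 and higher in WT2 and WT3, and the log2 fold change was 0.11 without the block (edgeR's adjusted p = 0.900) and 0.13 (SE 0.53, edgeR's adjusted p = 0.862) in the block fit, so that no difference was detectable at this depth.

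*APCDD1* (ENSG00000154856, chromosome 18, 10454635 to 10489949), an inhibitor at the cell surface, had 0, 1, 2 and 0 counts with serum and 0, 0, 1 and 0 without. A count of 0 allows up to 3 counts, or 0.0393 to 0.106 CPM depending on the library, and the filter on low counts removed the gene. In the fit without that filter 10 members were tested, *APCDD1* among them, and 0 were called in serum-free against serum.

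The lines also differed in these genes. In edgeR's test of a difference among the 4 lines, with condition in the fit, 6 of 9 members were called, against 22.9% of tested genes, namely *TCF7* (edgeR's adjusted p = 2.44e-05), *LEF1* (1.96e-04), *NKD1* (5.63e-04), *TCF7L1* (0.00187), *AXIN2* (0.00218) and *TCF7L2* (0.00518). These are the same 6 genes that were called with the block, and 15.0% of tested genes were called in both. *DKK1* (edgeR's adjusted p = 0.138), *ZNRF3* (0.547) and *RNF43* (0.840) were not called, and DESeq2 called *DKK1* (DESeq2's adjusted p = 2.73e-04). WT4 was the highest line in both conditions for 5 of 9 members, *LEF1*, *TCF7*, *TCF7L2*, *AXIN2* and *NKD1*, as for 18.1% of tested genes. WT2 was the lowest line in both conditions for 5 of 9, *LEF1*, *TCF7L1*, *TCF7L2*, *AXIN2* and *NKD1*, as for 8.83% of tested genes. Both held for 4 of 9, *LEF1*, *TCF7L2*, *AXIN2* and *NKD1*, as for 3.25% of tested genes. *DKK1* had the opposite order in both conditions, WT2 highest and WT4 lowest, which 2.42% of tested genes shared. Among the members called, the differences of *TCF7* (edgeR's adjusted p = 0.678) and *AXIN2* (0.676) were not called without WT4, and those of *LEF1* (0.150), *TCF7L1* (0.196) and *TCF7L2* (0.0563) were not called without WT2. Only *NKD1* was called whichever line was left out. Whether the step without serum differed between lines could not be tested with 1 library per line and condition.

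Beyond the members, 122 other genes of the pathway were listed and 87 had enough counts to be tested. Without the block 14 were called higher and 5 lower without serum, 21.8% of those tested beside 25.1% of all genes. With the block 37 were higher and 14 lower, 58.6% beside 45.7%, and with the GC correction as well 33 and 17. Their median log2 fold change was 0.18 in both fits, beside 0.03 and 0.04 for all tested genes.

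Of 19 Wnt ligands 8 were tested, 1 was higher without the block and 4 were higher and 1 lower with it, or 2 and 1 with the GC correction as well. That is 12.5% without the block and 62.5% with it, beside 25.1% and 45.7% of all tested genes. *WNT3*, a canonical ligand, averaged 3.08 ± 0.633 CPM with serum and 4.73 ± 0.742 without (SD, n = 4), and rose by 0.62 on the log2 scale (SE 0.19, edgeR's adjusted p = 0.0386). The most abundant ligand per length was *WNT5A*, known for signalling without beta-catenin in melanoma, at 14.1 and 19.5 RPKM with and without serum. Its log2 fold change was 0.47 (edgeR's adjusted p = 0.335) without the block and 0.41 (0.0479) with it, and WT3 was lower without serum. The blocked call was lost with the GC correction (edgeR's adjusted p = 0.0724). Of the secretion genes, *WLS*, which carries Wnt proteins to the surface, had -0.26 (edgeR's adjusted p = 0.264) and with the block -0.25 (0.00375).

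Among receptors, 9 of 10 Frizzled genes were tested, 2 were higher without the block and 4 with it, and 0 were lower in either fit. Those shares, 22.2% and 44.4%, lie near the 25.1% and 45.7% of all tested genes. With the GC correction and the block 5 were higher and *FZD8*, chosen after its values were seen, was lower (-0.33, edgeR's adjusted p = 4.56e-04). *FZD1* was at 58.4, 58.3, 55.4 and 75.9 CPM with serum in WT1 to WT4 and at 134.5, 126.8, 97.0 and 128 CPM without, a log2 fold change of 0.97 (SE 0.13, edgeR's adjusted p = 0.00157). *FZD7* was at 32.2, 26.75, 39.6 and 51.8 CPM with serum and 75.3, 55.7, 83.5 and 119.9 CPM without, a log2 fold change of 1.16 (SE 0.27, edgeR's adjusted p = 0.0183). The serum-free libraries of both genes were all above the serum libraries, as for 12.6% of tested genes. *LGR4*, a receptor for R-spondins, which protect Frizzled proteins from ZNRF3 and RNF43, was higher without serum in all 4 lines with a log2 fold change of 0.64 (SE 0.11, edgeR's adjusted p = 0.0043). The 4 R-spondin genes and *LGR5* had too few counts to be tested. *LGR6*, chosen after its values were seen, had 0 to 16 counts with serum and 6 to 168 without, and it was called with the block (log2 fold change 3.69, edgeR's adjusted p = 1.01e-05) and not without it (0.0597). Of the co-receptors 0 of 4 tested were called without the block, and with it *LRP5* was higher (0.27, edgeR's adjusted p = 0.00776) and *RYK* lower (-0.22, 0.00544), both calls being lost with the GC correction (0.813 and 0.695). With that correction *LRP6* (0.22, edgeR's adjusted p = 7.27e-04) and *ROR1* (0.31, 0.0388) were called higher, both named after their values were seen. The co-receptor shares called, 0% without the block and 50% with it, stand beside 25.1% and 45.7% of all tested genes.

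**Figure D4:**
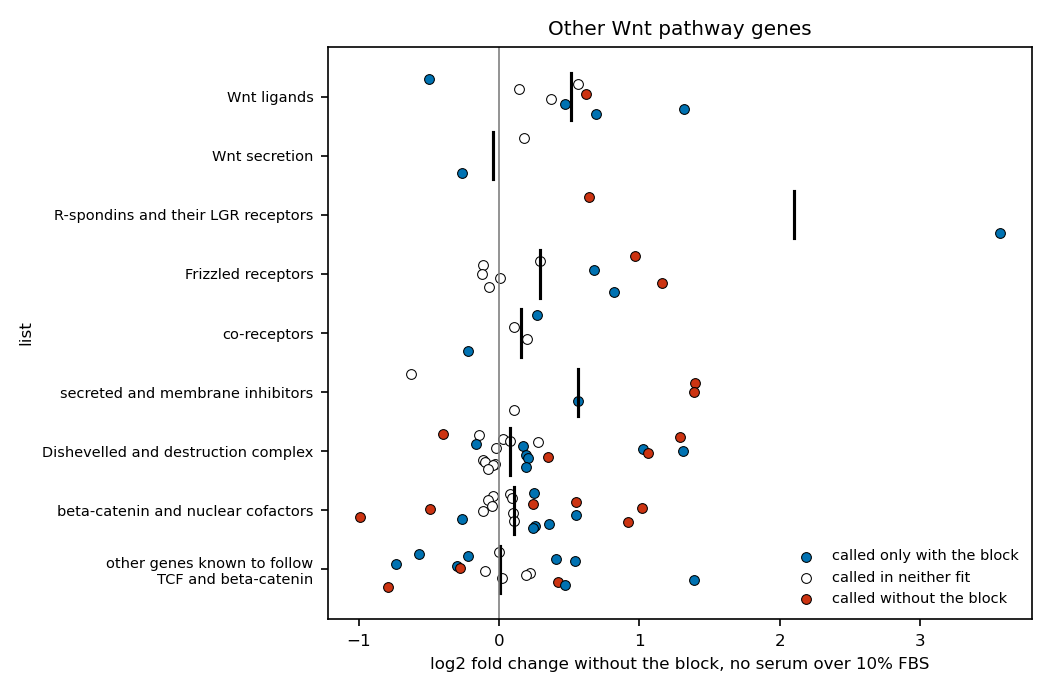
Log2 fold change without the block, serum-free against serum, of the 87 tested pathway genes other than the members (1 point a gene), by list, with the median of each list as a black bar and colours for genes called without the block, only with it, or in neither fit. The Frizzled receptors called lie above 0, with *FZD7* at 1.16, and in the list of secreted and membrane inhibitors *DKK3* and *KREMEN1* lie near 1.4.

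Of 14 other secreted and membrane inhibitors 5 were tested, 2 were higher without the block and 3 with it, and 0 were lower. With the GC correction as well 2 were higher. Shares called without and with the block were 40% and 60%, beside 25.1% and 45.7% of all tested genes. *KREMEN1*, a co-receptor through which DKK1 removes LRP6, was at 4.16, 4.245, 6.71 and 6.90 CPM with serum and 11.05, 13.4, 16.85 and 16.3 CPM without, a log2 fold change of 1.39 (SE 0.21, edgeR's adjusted p = 0.00243). *DKK3*, a divergent Dickkopf family member, rose by 1.4 (SE 0.21, edgeR's adjusted p = 0.00243). *SFRP1*, a secreted Frizzled-like protein and the most abundant of the list at 55.8 and 60.0 RPKM, differed by 0.11 on the log2 scale (edgeR's adjusted p = 0.675, and 0.0958 in the block fit).

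In the cytoplasm, 3 of 21 genes of the Dishevelled and destruction complex list were higher and 1 lower without the block, and 9 and 2 with it. With the GC correction as well, 6 were higher and 5 lower. Called shares were 19.05% without the block and 52.4% with it, beside 25.1% and 45.7% of all tested genes. *APC2*, a relative of the scaffold *APC*, went from 3.28 ± 1.22 to 7.98 ± 2.20 CPM (SD, n = 4; log2 fold change 1.29, SE 0.29, edgeR's adjusted p = 0.0109). *AMER1*, which binds APC at the membrane, fell by 0.40 on the log2 scale (SE 0.10, edgeR's adjusted p = 0.0183). *DVL1*, the most abundant of the list per length, had 0.19 (edgeR's adjusted p = 0.251) and with the block 0.20 (0.0165), but with the GC correction as well it was lower, at -0.14 (0.0105).

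In the nucleus, the beta-catenin gene *CTNNB1* itself was at 573.7 to 620.5 CPM with serum and 550.7 to 575.6 without, and the step of -0.08 on the log2 scale (SE 0.05) was called in neither fit (edgeR's adjusted p = 0.326, and 0.213 in the block fit). Of 22 genes in the list of beta-catenin and its nuclear cofactors, *CTNNB1* included, 20 were tested, 4 were higher and 2 lower without the block, and 9 and 3 with it. These are 30% and 60% of those tested, beside 25.1% and 45.7% of all tested genes. *CTNNBIP1*, which keeps beta-catenin from TCF factors, rose by 0.55 (SE 0.11, edgeR's adjusted p = 0.00751). *NLK*, a kinase that phosphorylates TCF/LEF factors, fell by 0.49 (SE 0.07, edgeR's adjusted p = 0.00193), and its serum-free libraries were all below the serum libraries, as for 15.0% of tested genes.

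Other genes known to follow TCF and beta-catenin in some tissues were divided. Of 24 listed 16 were tested, 1 was higher and 2 lower without the block, and 5 were higher and 6 lower with it. As shares of those tested this is 18.75% and 68.75%, beside 25.1% and 45.7% of all tested genes. *VEGFA*, an angiogenic factor, fell by 0.79 (SE 0.08, edgeR's adjusted p = 9.14e-04), and *TCF4*, the E-protein gene and not *TCF7L2*, rose by 0.42 (SE 0.09, edgeR's adjusted p = 0.00767). *FOSL1*, an AP-1 subunit and the most abundant of the list, was at 219 RPKM with serum and 132 without, and differed by -0.73 on the log2 scale (edgeR's adjusted p = 0.0954) and with the block -0.78 (1.57e-04).

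Leaving out the serum libraries of WT1 and WT2, edgeR called 1098 genes without the block, among them 6 other pathway genes and again 0 members. The unblocked log2 fold changes then came closer to 0 for *TCF7L1* (1.19 to 0.65), *NKD1* (0.92 to 0.45), *TCF7* (0.35 to 0.07), *TCF7L2* (0.24 to 0.09) and *DKK1* (-1.04 to -0.52), as for *AXIN2* above. *LEF1* went from -0.30 to -0.49, and *ZNRF3* from -0.18 to -0.19. The part of multiply aligned reads in these values was not tested. Single libraries also moved unblocked values by over 1.5 times, *TCF7L1* to 0.75 and *TCF7L2* to 0.15 without serum-free WT4, *LEF1* to -0.16 without serum WT4 and to -0.18 without serum-free WT2, and *DKK1* to -1.71 without serum-free WT2. The rank correlation between a gene's log2 fold change and its GC content was 0.36 across 17425 genes, which are not independent replicates. With the block and a GC correction, 6 of 9 members were called against 46.4% of genes, *AXIN2*, *NKD1*, *TCF7L1* and *TCF7L2* upward and *LEF1* and *ZNRF3* downward.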

How the data were processed

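RNA depleted of ribosomal RNA was sequenced as paired 100-base reads in 8 libraries of the A375 lines WT1 to WT4. The authors deposited raw counts per gene, whole numbers without normalization. The submitters' processing notes name cutadapt, TopHat2 2.0.11, HTSeq and GRCh38. The study's methods name a different read length, genome build and transcript quantifier, and the labels were followed here. The annotation release and strand setting are not given in the sources used here, so overlapping and antisense genes are uncertain, as are genes whose reads align to several places.

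Groups came from the labels. Members and gene lists were chosen with earlier results of these data known. Low counts were removed with filterByExpr, library sizes scaled by TMM and genes tested with edgeR 4.0.16 (R 4.3.3; glmQLFit with robust estimation, glmQLFTest, two-sided), with Benjamini-Hochberg adjustment over all 17671 tested genes and a threshold of 0.05. P-values of the unblocked fit measure the spread between 4 clones per condition, each sequenced in 1 library per condition. With the block, and in the test among lines, they measure the spread left once condition and line are fitted. The line number pairs the samples, as the same line gave both libraries: deviations from condition means correlated at 0.403 to 0.604 within a line and at most 0.126 between lines. Blocked values are therefore given beside the unblocked ones for the members, and for other genes where the block changed the call. RPKM used TMM-scaled library sizes and merged exon lengths. Symbols were matched for 55604 of 58051 genes. Coordinates and promoters are from RefSeq GRCh38.p14, lengths and GC content from a GENCODE annotation lifted to GRCh37. Depth sets the limits for *AXIN2*, *RNF43* and *APCDD1*, and limits from a count of 0 cover counting error only.

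Named genes were all members, from each other pathway list the 2 called genes with the smallest p and the one with the highest RPKM, and, of protein-coding genes averaging 100 counts or more, the 5 whose log2 CPM (prior count 2) correlated best with *AXIN2* and with *LEF1*. *LGR6*, *LRP5*, *LRP6*, *ROR1* and *FZD8* fall outside this rule, having been added with their values known.

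Alternatives were the replicate block, the block with a GC correction, DESeq2 1.42.0, voom in limma 3.58.1, RLE and upper-quartile scaling, 2 other count filters, each library and each line left out and, for RPKM levels, the length of the longest transcript, TPM and unscaled library sizes. Leaving out lines within the block fit, and leaving out WT1 and WT2 with serum together, were added after seeing the data. On simulated counts in which 200 genes differed by 1 on the log2 scale, edgeR recovered 72.5% without the block (0 false calls) and 95.5% with it (2.55% of calls false) in serum-free against serum among 17427 genes, and 91.0% for the difference among lines among 17384 genes (3.70% false). The changed genes were drawn from genes with higher mean counts than *AXIN2* and *RNF43*. In serum-free against serum they changed by the same step in every line. These rates therefore do not cover members with few counts or with steps that differ between lines.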

Additional observations from a re-analysis of the deposited data

Results flagged for a closer look

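The WT4 library stood apart from the other 3 lines for *TCF7* and *AXIN2* in both conditions, by Dixon's criterion for 4 samples. *TCF7* was at 12.9 CPM in WT4 with serum, beside 5.05 to 6.19 in the other lines, and at 16.9 CPM without serum, beside 6.11 to 7.94. *AXIN2* was at 0.951 CPM in WT4 with serum, beside 0.0913 to 0.164, and at 1.97 CPM without serum, beside 0.432 to 0.642. Of 18 groups searched (9 members in each condition) these 4 met the criterion, where chance gives about 0.9, or 1 group in 20, if groups are independent. They are not, as each line gave both conditions and several members varied together. Those counts therefore cannot be read as an excess over chance. The deposited counts of WT4 carry another name, and its part in these values was not tested.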

How the results depend on the processing

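Without the block, 4434 genes, 0 of 9 members and 19 other pathway genes were called in serum-free against serum. With the replicate block the counts were 8067, 6 and 51, and with a GC correction and the block 8091, 6 and 50. Without the 2 serum libraries richest in multiply aligned reads they were 1098, 0 and 6. Leaving out each library or line gave 1589 to 6128 genes, 0 or 1 members and 8 to 31 pathway genes without the block, the lowest counts without WT1 and the single member being *AXIN2* without serum WT4 (log2 fold change 2.76) or without line WT4 (2.06). *AXIN2* was at 0.84 without serum-free WT4 and at 0.78 without the 2 serum libraries richest in multiply aligned reads. Within the block fit, leaving out each line gave 6185 to 8938 genes, 5 to 7 members and 41 to 60 pathway genes (42 without WT2). The difference among lines called 6 members, and 3 to 6 without each line, the 3 being without WT2. DESeq2, limma's voom, RLE and upper-quartile scaling and both other filters called 0 members in serum-free against serum. The cause of these shifts was not tested.

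*RNF43* and *TCF7* changed sign in some fits. *RNF43* ranged from -0.35 to 0.47 without the block and from -0.33 to 0.53 with it as libraries or lines were left out (with the block, -0.06 without WT2 and -0.33 without WT3), and *TCF7* from -0.10 to 0.75, negative only without serum-free WT4. The block changed no call among members other than the 6 named. Counts of 4 to 111 for *AXIN2* and *RNF43* limit their precision, and 4 clones limit all tests.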

Other observations

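Genes whose log2 CPM ran most like *AXIN2* over the 8 libraries, which come from 4 lines, were *IFFO1* (Pearson's r = 0.992), *PRKCD* (0.990), *TSHZ1* (0.990), *UAP1L1* (0.988) and *ADGRE5* (0.988), among 11532 protein-coding genes compared. *PRKCD* encodes protein kinase C delta, and it ranged from 65.5 to 126 CPM, highest in WT4 without serum. *TSHZ1*, a zinc finger factor, ranged from 30.2 to 76.8 CPM, and *ADGRE5*, the adhesion receptor CD97, from 84.7 to 149 CPM, both also highest in that library. These coefficients are the largest over all genes compared and describe these libraries only.

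The genes most like *LEF1* were *FGF13* (r = 0.987), *GALNT18* (0.967), *TFPI2* (0.957), *JPH1* (0.954) and *NCAPD2* (0.944), of 11531 compared. *FGF13*, an intracellular fibroblast growth factor homologue, averaged 17.2 CPM with serum and 12.05 without, and *TFPI2*, a secreted protease inhibitor, 25.0 and 13.6 CPM. Both were highest in WT4 with serum, at 24.5 and 43.5 CPM.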
